A study of Mus musculus with 6 samples.

Results

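The 10 genes described here encode transcription factors known from blood vessels or from endothelium in general: *Sox17*, *Sox7*, *Erg*, *Fli1*, *Ets1*, *Elk3*, *Tal1*, *Lyl1*, *Lmo2* and *Mef2c*. They were taken by name, as every probe set that the platform annotation gives to one of these genes and to no other. The rule found 24 probe sets for the 10 genes, of 45037 probe sets and 18193 genes measured. RNA was measured on 6 Affymetrix mouse GeneChip arrays of endothelial cells sorted from pooled skin-draining and mesenteric lymph nodes (LN) of 6-week-old C57BL/6 mice, an inbred wild-type strain. The double positive group (3 arrays) held cells that stained for both gp38, the podoplanin protein, and CD31, and the CD31+ group (3 arrays) held, under the study's gates, cells that stained for CD31 and not for gp38. All cells of both groups had been depleted of CD45+ cells with magnetic beads and sorted as live CD45neg cells, and 20 ng of RNA per sample was amplified in 2 rounds. The number of mice behind each pool is not given in the sources used here, and replicates are named as biological.

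Under the gates of the study, gp38+ CD31+ cells are lymphatic endothelial cells (LEC) and gp38neg CD31+ cells are blood endothelial cells (BEC). The labels pair these words the other way round, with BEC beside double positive and LEC beside CD31+. The arrays are named here by the gate word, and all differences would turn sign under the cell type word. *Pdpn*, the gene of gp38, had log2 values of 8.32, 7.33 and 7.28 on the double positive arrays, against 3.69, 3.75 and 3.29 on the CD31+ arrays. Of 12 measured lymphatic markers 8 were higher in double positive and none lower, and of 14 measured blood endothelial markers 5 were lower in double positive and none higher (limma, adjusted p under 0.05), where 1.06% of all genes were higher and 0.225% lower. With the replicate number as a block none of these markers was called. *Efnb2*, on the blood endothelial list, lay the other way (1.72, limma adjusted p = 0.203). It read 10.79, 10.2 and 10.78 on the double positive arrays, against 9.49, 8.69 and 8.44 on the CD31+ arrays. *Prox1*, on the lymphatic list, differed by 0.07 at the brightest of its 3 probe sets, where the groups overlapped. With the filter on dim probe sets described below, *Efnb2* was called higher, as was *Prox1* at another probe set. *Pecam1*, which encodes CD31, lay between 2.39 and 2.59 on all 6 arrays, next to the floor of the values at 2.39, so its probe set could not serve as a check.

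SOX17 and SOX7 belong to the SoxF group, whose members bind DNA through an HMG box and act in vessel formation, and SOX17 is known for its part in arterial identity. ERG, FLI1, ETS1 and ELK3 are ETS factors, which bind a GGAA core that is present in the promoters and enhancers of many endothelial genes. TAL1 and its relative LYL1 are basic helix-loop-helix proteins that join E proteins, LMO2, LDB1 and a GATA factor in one complex, first known from blood stem cells and also active in endothelium. MEF2C is a MADS-box factor of muscle, neurons, lymphocytes and endothelium.

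Of these genes 5 had an entry in the RefSeq promoter table (build GRCm38.p6), with 10 windows of 250 bases before a transcript start. The windows of *Tal1* and *Elk3* are shown, since *Tal1* had the largest difference toward double positive and *Elk3* is itself an ETS gene. Capitals mark the ETS core GGAA or its reverse complement TTCC. The *Tal1* window lies on the plus strand at chr4:115056176-115056425 and the *Elk3* window on the minus strand at chr10:93311160-93311409.
*Tal1*: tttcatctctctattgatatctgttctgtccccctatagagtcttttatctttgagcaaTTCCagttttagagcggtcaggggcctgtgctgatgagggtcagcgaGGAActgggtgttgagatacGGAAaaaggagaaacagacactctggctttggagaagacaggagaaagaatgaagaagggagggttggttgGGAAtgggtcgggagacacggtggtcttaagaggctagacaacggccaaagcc
*Elk3*: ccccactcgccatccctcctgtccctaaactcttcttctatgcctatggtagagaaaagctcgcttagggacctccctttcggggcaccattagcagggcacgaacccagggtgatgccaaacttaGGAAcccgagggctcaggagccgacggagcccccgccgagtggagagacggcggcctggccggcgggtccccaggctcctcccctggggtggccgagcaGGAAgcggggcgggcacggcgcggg
This *Tal1* window, the first of 2 in the table, held 4 GGAA cores and 1 GATA motif (AGATAA or its reverse complement TTATCT), and the *Elk3* window held 2 GGAA cores and no AGATAA. The second *Tal1* window held 3 GGAA cores and no AGATAA. Of all 32851 promoter windows in the table, 93.4% held GGAA on either strand, with a median of 3, and 9.99% held AGATAA. A match is a description of the letters and not evidence of binding.

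Values are relative log2 RNA abundances, so a difference of 1 is a doubling, and levels of different probe sets cannot be set against each other. Each gene is led by its brightest probe set, the one with the highest mean over the 6 arrays. Groups were compared with limma over all 45037 probe sets with Benjamini-Hochberg adjustment, and a call means an adjusted p under 0.05. The double positive arrays were brighter as a whole. On them 13.8% to 14.7% of probe sets reached a log2 value of 5, against 10.7% to 12.6% on the CD31+ arrays, and the median difference of the genes that passed a filter on dim probe sets, which kept those reaching 5 on 3 or more arrays, was 0.75. Centring each array on its bright probe sets lowered every difference by 0.68, and centred values are given beside the deposited ones. Both arrays numbered 2 stood apart at the control probe set for B1, a repeat element of the mouse genome, at 12.84 in double positive and 12.28 in CD31+, against 7.74 to 8.0 on the other double positive and 7.47 to 8.11 on the other CD31+ arrays.

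*Sox17* fell and *Mef2c* was lower in the double positive cells, while the means of the other genes were higher than in the CD31+ cells, although those of *Sox7* and *Lyl1* turned the other way with centring. At the brightest probe set, all 3 double positive arrays lay above all 3 CD31+ arrays for *Ets1*, *Elk3*, *Tal1* and *Lmo2*, and below them for *Sox17* and *Mef2c*, and the groups overlapped for *Sox7*, *Erg*, *Fli1* and *Lyl1*. Over all genes, 16.9% lay above without overlap and 3.42% below, and 47.7% and 5.99% of genes that passed the filter on dim probe sets. The 10 genes include factors known from blood vessels and factors of endothelium in general. They were chosen with earlier results of these data known, so their choice may bear on these directions. At the brightest probe set, only *Sox17* and *Mef2c* lay lower in double positive both as deposited and after centring. *Erg*, *Fli1*, *Ets1*, *Elk3*, *Tal1* and *Lmo2* lay higher both ways on the arrays that carry the lymphatic markers. After centring the differences were 1.21 for *Tal1*, 0.85 for *Lmo2* and 0.20 to 0.43 for the ETS genes. The test over all probe sets called none of the 10 genes higher (background: 1.06% of genes) and called *Sox17* lower (background: 0.225%). At an unadjusted p under 0.05, *Elk3*, *Ets1*, *Lmo2* and *Tal1* were higher (14.4% of all genes) and *Sox17* and *Mef2c* lower (2.44%).

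**Figure D1:**
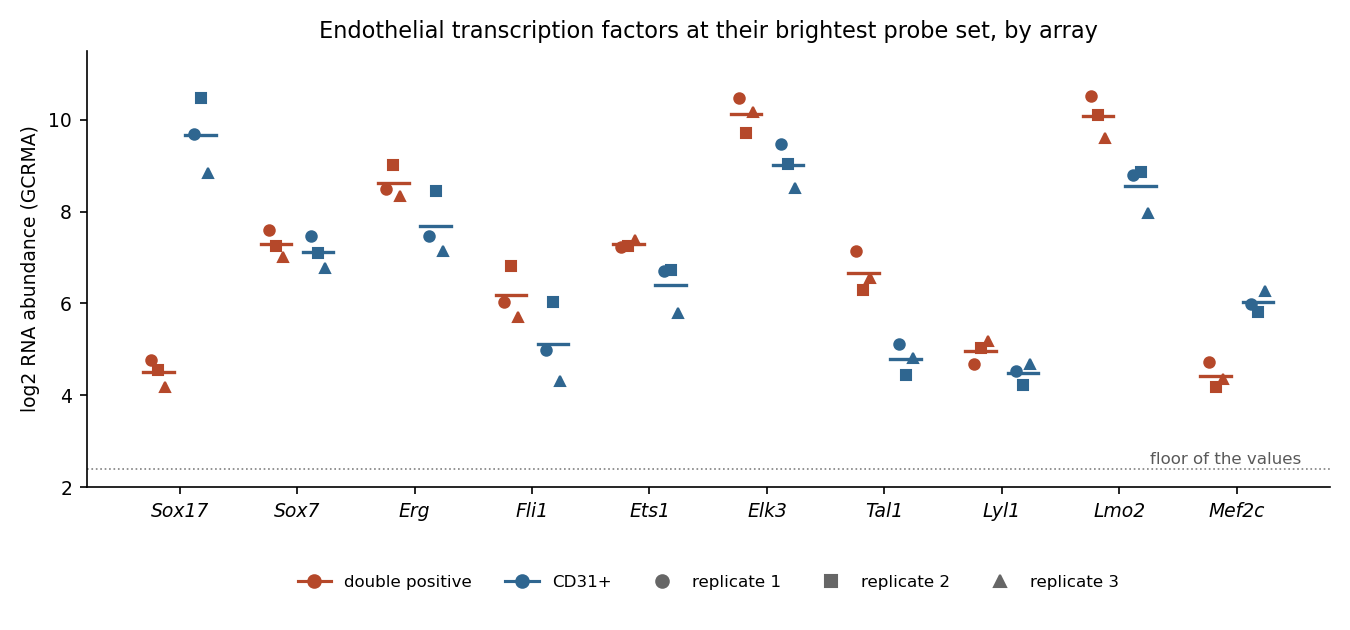
Log2 RNA abundance of the 10 genes at their brightest probe set on each array. Double positive arrays are red and CD31+ arrays blue, marker shapes give the replicate number, bars give group means and the dotted line marks the floor of the values at 2.39. *Sox17* and *Mef2c* lie lower in double positive, and *Tal1*, *Lmo2*, *Elk3* and *Ets1* lie higher without overlap.

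The replicate numbers pair the arrays, since the design text of the series describes paired samples and same-numbered arrays deviated together from their group means. Within pairs, the double positive array was the higher one in all 3 pairs for 8 of the genes and the lower one in all 3 for *Sox17* and *Mef2c*. The share of all genes with such pairs was not computed, and the double positive arrays were brighter as a whole. The 8 genes include *Sox7* and *Lyl1*, which turned the other way with centring, so this count says nothing particular about the group. With this pairing as a block, limma over all probe sets called 0 of the 10 genes (background: 0.022% higher, 0.0% lower), and at an unadjusted p under 0.05 it found 7 higher (14.9% of all genes, many of them at the floor) and 2 lower (2.59%). With the filter on dim probe sets, 9 of the 10 genes and 11 of the 24 probe sets entered the test. *Elk3*, *Ets1*, *Lmo2* and *Tal1* were then called higher and *Sox17* and *Mef2c* lower, where 36.0% of the genes tested were called higher and 4.34% lower. *Sox17* and *Mef2c* passed the filter only through their CD31+ arrays, so they had to differ there. *Tal1* and *Fli1* reached 5 on 4 arrays, among them all 3 double positive arrays, so they entered through the group where they were higher. The 4 of 9 higher calls are close to that background and say nothing particular about the group. Adding the block to the filter brought *Erg* and *Fli1* to the higher calls (background: 49.2% higher, 5.25% lower), and centring in place of the block left *Tal1* as the only higher call (13.9% higher, 10.3% lower). With filter, centring and block together, *Tal1* and *Lmo2* were called higher and *Sox17* and *Mef2c* lower (19.9% higher, 16.2% lower).

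*Sox17* showed the largest difference of the 10 genes. Its brightest probe set read 4.77, 4.54 and 4.18 on the double positive arrays, against 9.69, 10.48 and 8.83 on the CD31+ arrays. All double positive values lay under the level of 5 that was used to call a probe set bright, and all CD31+ values lay far above it. The means were 4.50 ± 0.295 in double positive and 9.67 ± 0.826 in CD31+ (SD, n = 3 each), a difference of -5.17 (SE 0.485, limma adjusted p = 0.0480), or 35.9-fold lower in double positive. The pairs differed by -4.92, -5.94 and -4.64. The call was lost with the block (adjusted p = 0.198) and when any 1 array was left out (adjusted p 0.0647 to 0.193, difference -5.59 to -4.76). With the filter the adjusted p was 7e-05 and with filter and block 7.61e-07, and centring moved the difference to -5.84 (adjusted p = 1.37e-06 with the filter). *Sox17* entered the filtered tests only through its CD31+ arrays, so these filtered values do not restore the lost call. In a sorted population, fewer cells with a transcript and less of it per cell cannot be told apart. The suffix _x_at of this probe set marks probes that may bind other transcripts as well. The second probe set lay near the floor in both groups, at 2.86, 2.88 and 2.86 in double positive and 2.88, 3.55 and 3.15 in CD31+, and differed by -0.32 (adjusted p = 0.659).

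*Sox7*, the other SoxF gene of the group, showed no difference that passed the test. It read 7.60, 7.26 and 7.02 on the double positive arrays, against 7.47, 7.10 and 6.76 on the CD31+ arrays, and the ranges overlapped. The means were 7.29 ± 0.291 in double positive and 7.11 ± 0.355 in CD31+ (SD, n = 3 each). The difference was 0.18 with a 95% interval of -0.50 to 0.86 (limma adjusted p = 0.786), and it turned to -0.50 with centring and -0.53 with quantile normalization. Its direction is therefore not settled. The second probe set stayed between 3.48 and 3.72 on all 6 arrays. *Sox18*, the third SoxF gene, known for its role in the start of lymphatic development, read 4.72, 4.83 and 4.82 in double positive and 5.45, 4.81 and 4.83 in CD31+, with a difference of -0.24 (adjusted p = 0.659). Within arrays, *Sox17* minus *Sox7* changed by -5.35 between double positive and CD31+ (SE 0.414), a measure that centring cannot move. The two-sided exact permutation test, which did not keep the pairs, gave p = 0.1 (0.167 after adjustment over 5 such contrasts). For each of these contrasts, 0.1 is the smallest p that 3 against 3 arrays allow in this unpaired test. Of the 19 SOX genes, all measured, limma called 1 lower (*Sox17*) and none higher, and the median difference was 0.00, as over all genes (0.00).

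The 4 ETS genes were all higher on average in double positive, by 0.88 to 1.11 at the brightest probe set, and none passed the test over all probe sets. *Erg*, which maintains the endothelial state, read 8.48, 9.02 and 8.34 in double positive and 7.47, 8.45 and 7.14 in CD31+. *Fli1*, its closest relative, read 6.02, 6.82 and 5.71 in double positive and 4.99, 6.03 and 4.31 in CD31+. In both genes array 2 was the highest of each group, so that the groups overlapped although every pair differed the same way, by 1.01, 0.57 and 1.20 for *Erg* and by 1.02, 0.79 and 1.40 for *Fli1*. The difference was 0.93 for *Erg* (SE 0.424, limma adjusted p = 0.659) and 1.07 for *Fli1* (SE 0.576, adjusted p = 0.659). Without both arrays numbered 2, a removal chosen after seeing the data, the differences were 1.10 for *Erg* (adjusted p = 0.379) and 1.21 for *Fli1* (0.632). With filter and block the adjusted p was 0.0219 for *Erg* and 0.0109 for *Fli1*, against 0.0888 and 0.103 with the filter alone. With the filter and 1 array left out, each gene was called in 1 of 6 fits, the one without CD31+ array 2. The adjusted p ran from 0.0197 to 0.234 for *Erg* and from 0.0228 to 0.291 for *Fli1* over these fits. Centring brought the differences to 0.25 for *Erg* and 0.39 for *Fli1* (adjusted p = 0.524 and 0.285 with filter and block). *Erg* minus *Fli1*, taken within each array, differed by -0.14 between the groups (SE 0.182, exact permutation p = 0.5). The second probe set of *Erg* lay between 2.57 and 3.43, and that of *Fli1* between 3.32 and 4.10, with differences of 0.17 and -0.04.

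*Ets1*, a factor of lymphocytes and of growing vessels, had 2 bright probe sets that were both higher in double positive. The brightest read 7.23, 7.24 and 7.38 in double positive and 6.70, 6.72 and 5.80 in CD31+, and the next read 6.93, 7.06 and 6.67 in double positive and 5.94, 5.55 and 5.34 in CD31+. Neither overlapped between the groups. The differences were 0.88 (SE 0.294, limma adjusted p = 0.481) and 1.28 (SE 0.201, adjusted p = 0.122), and with the filter the second passed (adjusted p = 0.0111) and the first did not (0.0626), although it did with filter and block (0.0373). Centring lowered them to 0.20 and 0.60 (adjusted p = 0.642 and 0.136 with the filter). The remaining 2 probe sets of *Ets1* lay between 2.42 and 2.85 on all arrays. *Elk3*, an ETS repressor that becomes an activator when phosphorylated, was higher in double positive at both of its bright probe sets as deposited. The brightest read 10.47, 9.70 and 10.17 in double positive and 9.46, 9.04 and 8.51 in CD31+, a difference of 1.11 (SE 0.341, adjusted p = 0.414). The filter brought the adjusted p to 0.036, which held in 2 of 6 fits that left out 1 array and was lost without double positive array 1 or 3 or CD31+ array 2 or 3 (0.0347 to 0.137 over the 6), and centring to a difference of 0.43 (adjusted p = 0.309 with the filter). The second probe set read 8.35, 8.17 and 8.51 in double positive and 7.87, 7.74 and 7.70 in CD31+. It differed by 0.57 (adjusted p = 0.160), and this became -0.11 with centring and -0.25 with quantile normalization, so the 2 probe sets do not share a direction under those scalings. The last 2 lay between 2.40 and 2.84 on all arrays.

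**Figure D2:**
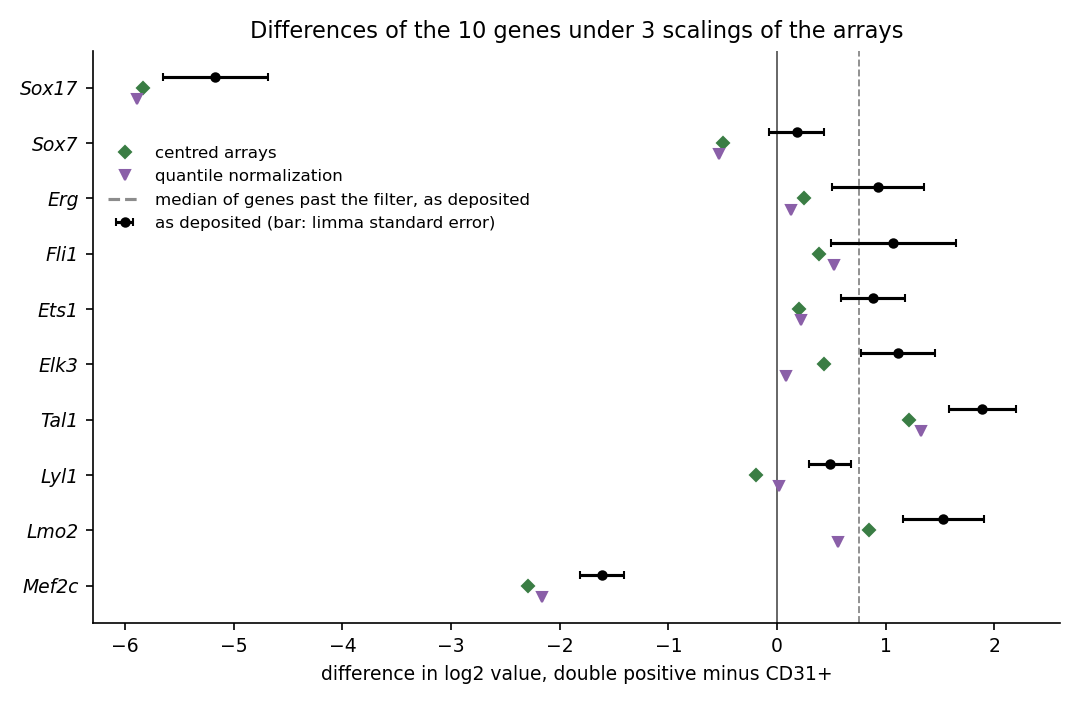
Difference in log2 value, double positive minus CD31+, of each gene at its brightest probe set as deposited (black, bars are limma standard errors), with centred arrays (green) and with quantile normalization (purple). The dashed line marks the median of the genes past the filter on dim probe sets, 0.75. *Sox17* and *Mef2c* stay far below 0 under all 3 scalings. *Tal1*, *Lmo2*, *Erg*, *Fli1*, *Ets1* and *Elk3* stay above it, *Elk3* by only 0.08 with quantile normalization. *Sox7* turns below 0 under both others, and *Lyl1* turns to -0.19 with centring.

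Among the other ETS genes few were bright enough to compare. Of 26 ETS genes listed 24 were measured, none was called in either direction, and the median difference was 0.01. With the filter, *Elk3*, *Elk4*, *Ets1* and *Etv3* were called higher and *Ets2* lower, of 11 genes with a probe set past it, a share of higher calls close to the 36.0% over all genes in that test. *Etv3*, a repressor known from macrophages, read 6.35, 6.51 and 6.35 in double positive and 5.44, 5.05 and 4.54 in CD31+ (difference 1.39, limma adjusted p = 0.159). *Spib*, known from B cells and plasmacytoid dendritic cells, had the largest difference of the family, with 4.33, 5.52 and 6.29 in double positive and 3.08, 2.65 and 2.65 in CD31+ (2.58, adjusted p = 0.224). *Elk4* differed by 0.96 (adjusted p = 0.324). *Ets2*, the closest relative of *Ets1*, read 6.98, 6.44 and 6.83 in double positive and 7.69, 7.13 and 6.33 in CD31+ at its brightest probe set, with a difference of -0.30 (adjusted p = 0.768), and the filtered call came from another probe set. *Etv2*, which starts the endothelial program in the embryo, was within 0.1 of the floor on all arrays, as were *Erf*, *Elf4*, *Elf5*, *Ehf* and *Spic*.

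*Tal1* and *Lmo2* were higher in double positive on every array, and the groups met for *Lyl1*. *Tal1* read 7.15, 6.30 and 6.56 in double positive and 5.12, 4.43 and 4.80 in CD31+. Its means were 6.67 ± 0.432 in double positive and 4.78 ± 0.347 in CD31+ (SD, n = 3 each), a difference of 1.89 (SE 0.307, 95% interval 1.06 to 2.71), or 3.7-fold. Among the 10 genes this was the largest difference in that direction, and the pairs differed by 2.03, 1.88 and 1.76. Over all probe sets limma gave an adjusted p of 0.130, and 0.151 with the block. It passed with the filter (0.00339), with filter and block (0.000336), with filter and centring (difference 1.21, 0.0209) and in all 6 filtered fits that left out 1 array (0.00867 to 0.0209). *Tal1* reached 5 on all double positive arrays but on only 1 CD31+ array (5.12). It thus entered the filtered tests through the group where it was higher, and the filtered values are no separate support.

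*Lmo2* encodes the LIM-only bridge of the complex. It read 10.51, 10.11 and 9.60 in double positive and 8.80, 8.87 and 7.97 in CD31+, with means of 10.07 ± 0.453 in double positive and 8.55 ± 0.497 in CD31+ (SD, n = 3 each). The groups did not overlap, and the difference was 1.53 (SE 0.372, limma adjusted p = 0.275), or 2.88-fold. With the filter the adjusted p was 0.0133, but 0.0671 without double positive array 1 (2 higher calls were left among the 10 genes, *Ets1* and *Tal1*) and 0.0577 with centring (difference 0.85). *Lyl1* read 4.68, 5.03 and 5.19 in double positive and 4.53, 4.22 and 4.68 in CD31+, which met at 4.68. Its difference was 0.49 (95% interval -0.03 to 1.01, adjusted p = 0.610), it did not pass the filter, and it turned to -0.19 with centring. *Tal1* minus *Lyl1* changed by 1.40 between the groups (SE 0.410) and in the same direction in each pair (1.89, 1.06 and 1.25), with exact permutation p = 0.1. *Tal1* minus *Lmo2* changed by 0.36 (SE 0.428, exact permutation p = 0.5).

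None of the known partners of this complex passed the test. All 20 listed partners and E protein inhibitors were measured, and their median difference was 0.01. *Ldb1*, the LIM-domain binding protein of the complex, lay between 2.42 and 2.46 on all arrays at its only probe set, next to the floor. *Ldb2*, its relative, read 9.41, 9.71 and 8.56 in double positive and 8.91, 8.50 and 7.88 in CD31+ (0.80, limma adjusted p = 0.659, and a difference of 0.12 after centring). *Gata2*, the GATA factor of endothelium, read 6.67, 5.84 and 5.79 in double positive and 5.81, 5.60 and 5.79 in CD31+ (0.37, adjusted p = 0.659, and a difference of -0.31 after centring). The groups overlapped for both. *Tcf4*, an E protein that can pair with TAL1, lay the other way, with 8.64, 8.60 and 8.55 in double positive and 9.71, 9.27 and 8.91 in CD31+ (-0.70, adjusted p = 0.44). *Ssbp2*, which stabilizes the LDB proteins, was higher in all arrays of double positive (7.69, 7.50 and 6.92) than of CD31+ (5.46, 6.16 and 5.22), with a difference of 1.76 (adjusted p = 0.189). *Id2*, an inhibitor of E proteins, differed by 1.39 (adjusted p = 0.124). Of 8 genes past the filter, *Ssbp2* and *Id2* were called higher (36.0% of all genes in that test) and *Tcf4* lower at another probe set (4.34%), and with centring besides, *Ssbp2* was called higher (13.9%) and *Tcf4* lower (10.3%).

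TAL1, LYL1, LMO2, FLI1 and MEF2C are also made by blood cells, so markers of those cells are given beside them. *Ptprc*, which encodes CD45, read 2.53, 2.74 and 2.74 in double positive and 4.37, 2.77 and 4.03 in CD31+. Of 10 measured megakaryocyte, platelet and erythroid markers none was called, and *Gata1*, *Klf1*, *Gp9* and *Gp1bb* were within 0.1 of the floor on all arrays. The log2 of their summed level was 8.51 to 9.23 in double positive and 7.13 to 8.55 in CD31+, and it was carried by *Pf4*. *Itga2b*, the platelet integrin, differed by 1.80 in the same direction as *Tal1*. Of 12 myeloid markers none was called, the summed level was 10.10 to 10.78 in double positive and 10.85 to 11.04 in CD31+, and *Cd68*, *Itgax*, *Fcer1g* and *Tyrobp* were at the floor. The largest difference among them was that of *Cd14* (1.89, limma adjusted p = 0.0678), in the same direction as *Tal1*. *Cd14* read 4.90, 5.20 and 4.91 in double positive and 3.31, 3.32 and 2.70 in CD31+, while *Ptprc* and *Laptm5* lay the other way. Of 8 B cell markers none was called, the summed level was 5.56 to 5.58 in double positive and 5.58 to 5.63 in CD31+, and *Cd79a*, *Blk* and *Cd22* were at the floor. Of 8 T cell markers none was called, with a summed level of 8.03 to 8.97 in double positive and 9.44 to 9.69 in CD31+ and *Cd3e*, *Cd3g* and *Cd8b1* at the floor. The T cell sum was carried by *Cd8a* at a probe set that may bind other transcripts (8.50, 8.83 and 7.79 in double positive and 9.60, 9.38 and 9.34 in CD31+, called lower with the filter), and the myeloid sum by *Laptm5* (-0.57). The part of such cells in the differences of these genes was not tested.

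*Mef2c* was lower in double positive at every probe set that stood clearly above the floor. The brightest read 4.72, 4.18 and 4.35 in double positive and 5.99, 5.81 and 6.28 in CD31+, with means of 4.42 ± 0.277 in double positive and 6.03 ± 0.232 in CD31+ (SD, n = 3 each). The next read 3.36, 3.07 and 3.09 in double positive and 5.01, 4.87 and 4.25 in CD31+, and the third read 2.81, 2.78 and 3.07 in double positive and 3.55, 4.14 and 4.76 in CD31+. None of these overlapped between the groups. The differences were -1.61 (SE 0.200, 95% interval -2.15 to -1.07, limma adjusted p = 0.0749), -1.54 (adjusted p = 0.122) and -1.26 (adjusted p = 0.342). The first corresponds to 3.06-fold lower in double positive. It missed the threshold over all probe sets and with the block (adjusted p = 0.264), and passed with the filter (0.00382), with filter and centring (-2.29, 0.000423) and in all 6 filtered fits with 1 array left out (0.00605 to 0.022). This probe set entered the filtered tests only through its CD31+ arrays. The filter was set once on all 6 arrays, also for the fits that left 1 out. The filtered values are therefore no separate support for the difference. Over all probe sets, quantile normalization gave a call at the second probe set (-1.82, adjusted p = 0.0397) and not at the brightest (-2.16, 0.0998), and the average over the probe sets of the gene was called (-0.95, 0.0142). Its last 2 probe sets stayed between 2.39 and 3.26, with differences of -0.26 and -0.06.

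**Figure D3:**
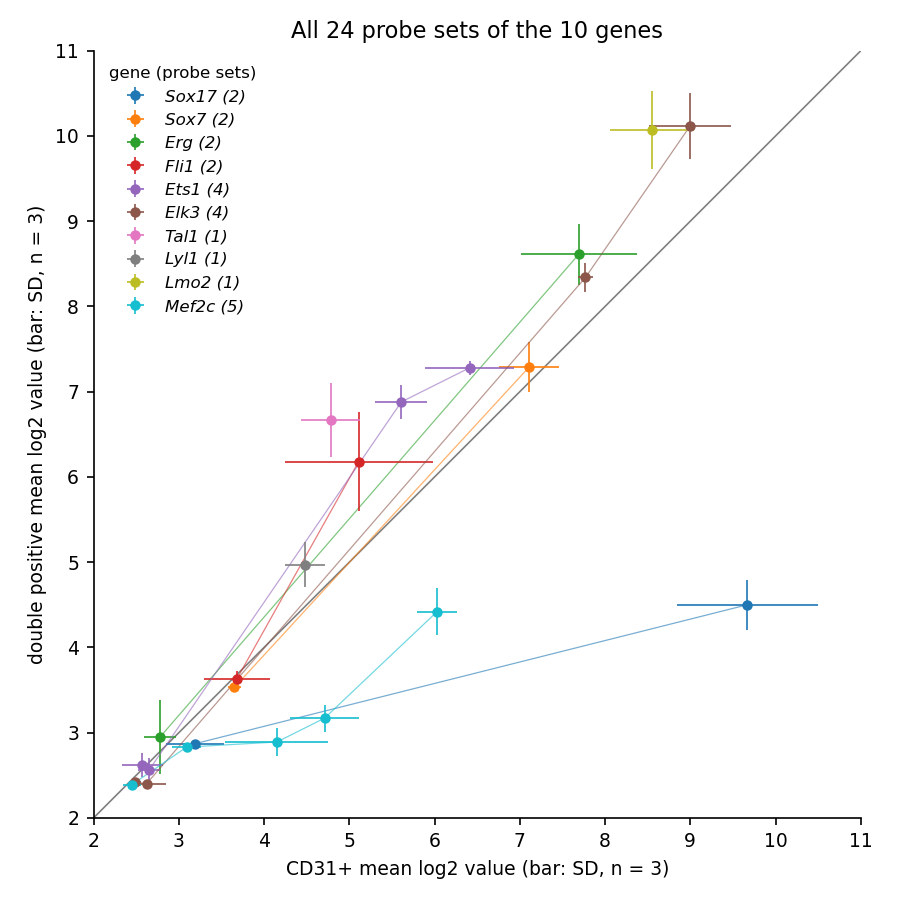
Group means of all 24 probe sets of the 10 genes, double positive on the vertical and CD31+ on the horizontal axis, in log2 units (bars are SD, n = 3). Lines join the probe sets of a gene and the diagonal marks equal means. The probe sets of *Mef2c* lie on or below the diagonal, *Sox17* rests on 1 bright probe set, and 9 of the 14 probe sets that are not the brightest of their gene stay below 4 on all arrays.

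The relatives and regulators of *Mef2c* were mostly dim. Of 8 listed genes, which were the other MEF2 genes, the class IIa histone deacetylases that repress MEF2 factors and the kinase gene *Mapk7*, all measured, limma called none, with or without the filter, and 1 had a probe set past the filter. *Mef2a* read 6.31, 6.35 and 6.05 in double positive and 6.08, 5.04 and 5.47 in CD31+ (0.70, limma adjusted p = 0.659), a difference of 0.03 after centring. *Mef2d* read 3.89, 3.42 and 4.02 in double positive and 3.89, 3.87 and 3.94 in CD31+ (-0.12, adjusted p = 0.789). *Mef2c* minus *Mef2a* changed by -2.32 between the groups (SE 0.343), by -1.50, -2.94 and -2.51 in the pairs, with exact permutation p = 0.1 (0.167 after adjustment). MEF2C is also a factor of smooth muscle. Of 10 pericyte and smooth muscle markers none was called, their summed level was 7.71 to 8.14 in double positive and 7.52 to 9.82 in CD31+, and *Cnn1* and *Des* were at the floor. *Acta2*, smooth muscle actin, differed by -2.34 and *Pdgfrb*, the pericyte receptor, by -2.92, and both were called lower with the filter, which they passed only through the CD31+ arrays. Their part in the value of *Mef2c* was not tested.

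Of 22 genes known in endothelium as targets of these factors, all measured, limma called *Flt1* lower and none higher, and the median difference was -0.04. *Flt1*, a VEGF receptor and also one of the blood endothelial markers, read 3.51, 3.45 and 3.54 in double positive and 7.77, 8.24 and 8.05 in CD31+, a difference of -4.52 (SE 0.134, adjusted p = 0.0111, and 0.132 with the block). Of 15 with a probe set past the filter, *Angpt2*, *Cldn5*, *Hhex*, *Klf2*, *Klf4* and *Nos3* were called higher, near the background of 36.0%, and *Eng* (at another probe set), *Flt1*, *Robo4* and *Vwf* lower, where the background was 4.34%. *Angpt2* and *Nos3* passed the filter only through the double positive arrays and *Flt1* and *Robo4* only through the CD31+ arrays, so they had to differ there. With centring besides, *Klf2* and *Nos3* were no longer among the higher ones. The following were chosen after their values were seen. *Cldn5*, the tight junction claudin and a target of ERG in endothelial culture, read 11.43, 11.65 and 11.18 in double positive and 7.65, 8.36 and 6.94 in CD31+ (3.76, adjusted p = 0.0606). *Klf4*, known as a target of MEF2 factors, read 12.71, 12.77 and 12.81 in double positive and 10.87, 11.27 and 10.17 in CD31+ (1.99, adjusted p = 0.117), opposite in direction to *Mef2c*. *Vwf*, the von Willebrand factor and an ETS target, also listed among the blood endothelial markers, read 6.11, 5.43 and 5.45 in double positive and 8.56, 9.71 and 7.59 in CD31+ (-2.96, adjusted p = 0.211), opposite in direction to *Erg* and *Fli1*. *Notch4*, a Notch receptor of endothelium, read 2.61, 2.49 and 2.46 in double positive and 6.27, 6.03 and 4.61 in CD31+ (-3.12, adjusted p = 0.125), in the same direction as *Sox17*. *Cdh5*, VE-cadherin, differed by -0.08 (adjusted p = 1.0).

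**Figure D4:**
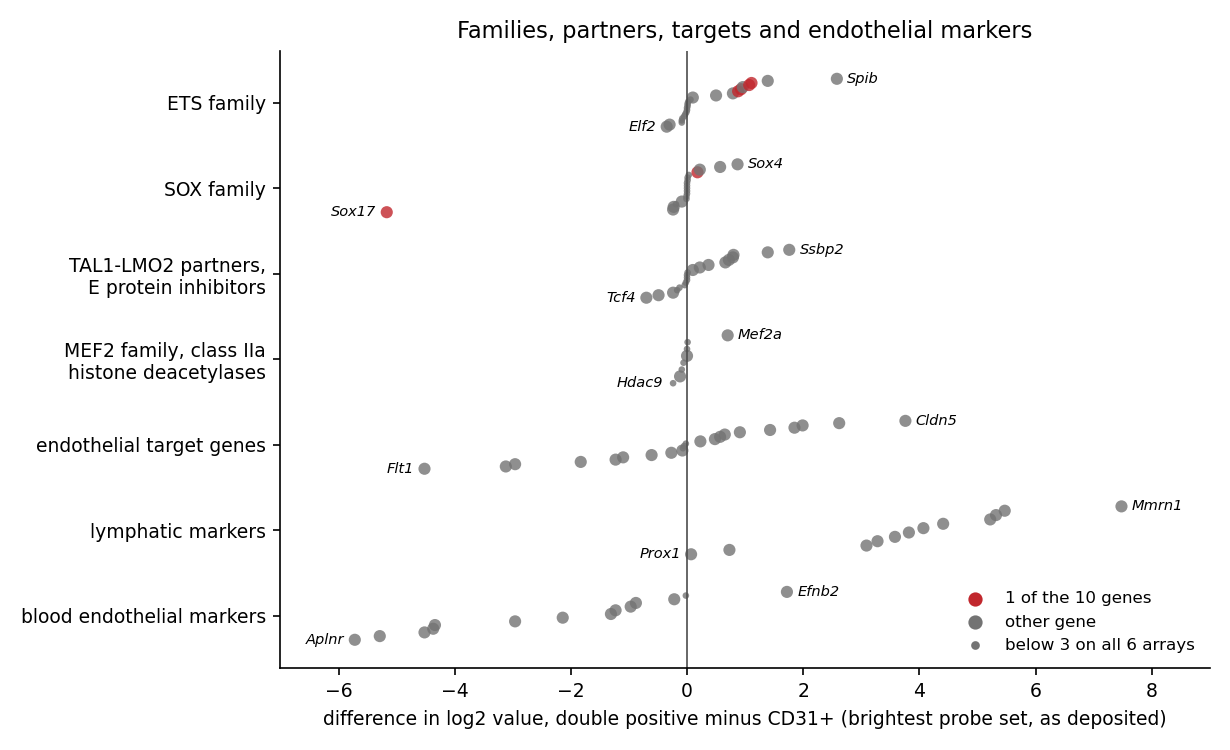
Difference in log2 value, double positive minus CD31+, of each measured gene of 7 lists at its brightest probe set. Red points are among the 10 genes, small points lie below 3 on all 6 arrays, and the genes at the ends of each list are named. The ETS list spreads from -0.35 to 2.58, the partner list from -0.70 to 1.76 and the MEF2 list, which also holds *Mapk7*, from -0.24 to 0.70. The target list spreads from -4.52 to 3.76. The lymphatic marker list spreads from 0.07 to 7.48 (median 3.94). The blood endothelial marker list spreads from -5.72 to 1.72 (median -1.72), with *Efnb2* at its upper end.

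Markers of fibroblastic reticular cells, which stain for gp38 and lie outside the CD31 gate, were summed as well. Of 9 measured markers *Postn* and *Thy1* were called higher in double positive, by 4.60 and 3.03, and the summed level of the list was 11.10 to 11.88 in double positive and 8.16 to 9.35 in CD31+, carried in double positive by *Postn*. The median of the list was -0.19, and the collagen genes *Col1a2* (-3.11) and *Col3a1* (-3.15) and the receptor gene *Pdgfra* (-1.41) lay the other way, the collagen genes being called lower with the filter, which *Col1a2* passed only through the CD31+ arrays. Their part in the values of the 10 genes was not tested.

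For the 3 genes with the largest differences, the 2 genes with the most similar profile were sought among 3984 genes with a mean of at least 5, by the root mean square difference of log2 values over the 6 arrays after each gene was centred on its own mean. For *Sox17* these were *Abcb1a*, which encodes a drug efflux pump of brain capillaries (0.349, with 3.95, 3.89 and 3.19 in double positive and 9.19, 9.12 and 8.56 in CD31+), and *Tmem47*, a junction protein gene (0.357). Both were called lower in double positive, with differences of -5.28 (limma adjusted p = 0.0217) and -4.79 (adjusted p = 0.0448). For *Tal1* they were *Plscr3* (0.137, difference 1.88) and *Tgfbr2*, a TGF-beta receptor gene (0.148, difference 1.94). For *Mef2c* they were *Map3k12*, a kinase gene (0.103, difference -1.67), and *Mrtfb*, a coactivator of serum response factor (0.144, difference -1.49). None of these 4 was called over all probe sets. The likeness is descriptive and rests on 6 arrays.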

How the data were processed

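Per the labels and the methods of the study, the authors normalized the arrays with GCRMA and deposited 1 relative log2 value per probe set and array. Tool versions are not given in the sources used here. The deposited table held 45101 probe sets, of which 64 were controls. Of the 45037 others, 34945 mapped to 1 gene, 932 to several and 9160 to none in the platform annotation, and symbols were updated through RefSeq (34741 IDs matched). The values have a floor at 2.39, and 37.4% of probe sets lay within 0.1 of it on all arrays. Depth does not apply to arrays, and the precision is limited by 3 arrays per group. In R 4.3.3, limma 3.58.1 with its default eBayes was fitted to all probe sets without filter or block, the threshold the study used (5% FDR) was kept, and a gene was called if at least 1 probe set unique to it passed. Plots used Python 3.11.15 and matplotlib 3.10.9.

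For pairing, over the 5764 probe sets whose mean reached 5, each array's deviation from the mean of its group was taken, and it correlated with that of the same-numbered array at 0.341, 0.475 and 0.418 and with that of other numbers between -0.405 and 0.0566. The series' design text describes pairs, so the numbers were taken to pair the arrays. The filter kept 6088 probe sets. The summed level of a marker list is the log2 of the sum of its linear values at the brightest probe sets. Named genes were all probe sets of the 10 genes and relatives fixed by name. For each other list the rule was the called genes or the 3 with the smallest adjusted p. It was not kept throughout, since called endothelial markers were mostly only counted and some genes were named after their values were seen. The 10 genes and all lists were chosen with earlier results of these data known. Scripts were tested on simulated data. Alternatives were the block, the filter, centring, quantile normalization, eBayes with trend and robust, array weights, each array left out, averaged probe sets, 1% FDR and the other label word. The removal of both arrays numbered 2, the filter with centring and block, and the filter with each array left out were chosen after seeing the data.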

Additional observations from a re-analysis of the deposited data

How the results depend on the processing

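Over all probe sets the 10 genes gave 0 higher and 1 lower call. Higher calls were 4 with the filter, 6 with filter and block, 1 with filter and centring, 2 with filter, centring and block, 3 with centring alone and 2 to 5 with the filter and 1 array left out. Lower calls were 0 with the block, with 1% FDR, with any 1 array left out and without both arrays numbered 2, 6 with centring alone, and 2 with each filtered setting, with quantile normalization and with averaged probe sets. Reading the arrays by the cell type word gives 1 higher and 0 lower. Over all genes, 193 higher and 41 lower calls became 4 and 0 with the block, 1518 and 183 with the filter, 2074 and 221 with filter and block, 585 and 434 with filter and centring, 840 and 684 with filter, centring and block, 407 and 83 with averaged probe sets, 4 and 2 at 1% FDR, 26 and 13 without both arrays numbered 2, 36 to 103 and 5 to 61 with 1 array left out, and 695 to 1648 and 136 to 196 with the filter besides. eBayes with trend and robust gave 127 higher, and quantile normalization 103 lower. Centring alone gave 1420 and 15638, because it shifts probe sets at the common floor apart by construction, so its calls were not read.

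Turned signs were -0.50 for *Sox7* with centring, also with filter or block, and -0.53 with quantile normalization, -0.19 for *Lyl1* with centring, and -0.11 for the second probe set of *Elk3* with each centring and -0.25 with quantile normalization. Among dim probe sets, *Erg* turned to -0.50 with centring and to -0.07 without double positive array 1 (-0.07 to 0.35 over the arrays left out), *Fli1* to 0.17 without CD31+ array 1 (-0.22 to 0.17), the fifth of *Mef2c* to 0.00 without CD31+ array 3 (-0.09 to 0.00), and the fourth of *Ets1* to -0.63 with centring, -0.01 with array weights, -0.03 at the lowest when 1 array was left out (-0.03 to 0.19) and -0.10 without both arrays numbered 2. The causes were not tested. Of the other values of single probe sets, 342 kept direction and side of the threshold, 62 came to pass it and 9 no longer did. The 62 include values with centring alone, whose calls were not read, and values from filtered fits chosen after seeing the data. Probe sets near the floor allow no statement on a difference.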
